A study of Mus musculus with 6 samples.

Results

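The 45 genes described here encode the subunits, activators, inhibitor and assembly chaperones of the proteasome, measured in mouse liver with and without the nuclear receptor SHP. They were taken from the deposited gene table by symbol: every gene named Psma, Psmb, Psmc, Psmd, Psme, Psmf or Psmg with a number, apart from the immunoproteasome subunits Psmb8 and Psmb9. The pattern matched 47 genes, all 47 had counts in every library, and 45 remained of 19594 genes with counts and 33495 in the table. They comprise 14 subunits of the core particle, 17 subunits of the regulatory particle and 14 genes that belong to neither. The name "constitutive" holds for most of them by general knowledge, but Psmb10, Psme1 and Psme2 are interferon-inducible and Psma8 is known as a testis subunit. Psma8 had 0 to 6 counts per library here and was the only gene of the 45 below the level needed for a test.

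The 6 libraries came from livers of male mice aged 2 months on the C57BL6 background. The 3 control libraries were from wild-type mice and the 3 others from mice labelled SHP -/-, in which the gene for SHP, Nr0b2, is knocked out. SHP is an orphan nuclear receptor of hepatocytes that binds no DNA itself and represses other receptors. The labels give neither the allele nor whether a library is 1 animal or a pool, and they call the samples replicates without saying what was repeated, so p-values measure only the spread between these libraries. No treatment is given, and what the groups share is strain, sex, age, tissue and the selection of 5′ capped RNA with a variant of the cap-binding protein EIF4E.

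The proteasome is the protease that degrades most short-lived and damaged proteins of the cell after they have been tagged with ubiquitin. Its barrel-shaped core particle stacks rings of alpha subunits, which gate the entrance, around rings of beta subunits, 3 of which (Psmb5, Psmb6 and Psmb7) cut peptide bonds. The regulatory particle caps the barrel: its base holds a ring of ATPases (Psmc1 to Psmc6) that unfold the substrate, and its lid removes the ubiquitin chain. When proteasome activity is short, the transcription factor NFE2L1 is processed by the protease DDI2 and raises the transcription of subunit genes together, which is why these genes are often treated as 1 programme.

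Library totals ran from 4982530 to 6155064 counts in wild type and from 4494353 to 7225842 in knockout. Mitochondrially encoded genes took 10.2% to 10.3% of counts in wild type and 5.66% to 7.10% in knockout. Nr0b2 stood at 15.7, 10.8 and 11.9 RPKM in wild type and 5.85, 6.24 and 9.13 RPKM in knockout. RPKM here are counts per 1000 bases of deposited exon length and per 1000000 counts of the scaled library. The Nr0b2 groups did not overlap, and it fell by 0.81 ± 0.25 on the log2 scale (SE; limma voom, adjusted p = 0.0442), with reads remaining in every knockout library. This difference passed in 5 of the 13 alternative settings in which Nr0b2 was tested, and the part of the gene that is deleted is not given in the labels. All 5 hepatocyte markers were present, with sums of 36803 to 48789 RPKM in wild type and 41553 to 45391 RPKM in knockout, and 0 of 5 passed the test, beside 14.5% of all genes tested.

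Of the 44 genes tested, 6 passed the threshold of adjusted p under 0.05 in limma voom, a linear model on precision-weighted log2 counts adjusted over all 11794 genes tested. That is 13.6% of them, beside 14.5% of all genes tested. Lower in knockout were the alpha-ring subunit Psma4 and the ATPases Psmc1 and Psmc6, 3 genes, where 6.94% of all genes passed in that direction. Higher in knockout were the beta-ring subunit Psmb4, the lid subunit Psmd3 and the base chaperone Psmd9, also 3 genes, where 7.58% of all genes passed in that direction. The count fell from 6 to 3, with 0 higher, when wild-type library 3, or knockout library 1 or 2, was left out, and the 3 were then Psma4, Psmc1 and Psmc6. At an unadjusted p under 0.05 there were 11 of 44, beside 30.6% of all genes. At the main low-count filter the share of proteasome genes that passed was thus near that of genes at large. With a filter 10 times stricter, 7 of 36 proteasome genes passed, a lower share than the 26.4% of 5975 genes tested. In the main fit the members that passed were divided evenly between the directions.

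The 6 genes lie on 6 chromosomes (mm9, as deposited): Psma4 at chr9:54798623-54805837 and Psmc1 at chr12:101348403-101361574 are among them, both on the plus strand. Start-site sequences of 4 of the 6 are shown because they are the genes past the threshold with an entry in the promoter table whose window holds a searched motif within the printed bases. Psmd3 had no entry, and the Psmb4 entry held none of the motifs. Each runs from 125 bases before the transcription start to 5 bases from it, 5′ to 3′, on the plus strand of RefSeq's GRCm38.p6 annotation, a later build than that of the counts. Capitals mark letters that match a GC box (GGGCGG), the ETS factor core (CCGGAAG) or the core of the antioxidant response element (TGACNNNGC), the site that NFE2L1 and NFE2L2 bind with small MAF proteins, on either strand.
Psma4, chr9:54950734-54950863: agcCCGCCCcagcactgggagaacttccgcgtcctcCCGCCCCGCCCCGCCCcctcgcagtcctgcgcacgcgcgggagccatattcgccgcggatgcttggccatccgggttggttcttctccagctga
Psmc1, chr12:100110077-100110206: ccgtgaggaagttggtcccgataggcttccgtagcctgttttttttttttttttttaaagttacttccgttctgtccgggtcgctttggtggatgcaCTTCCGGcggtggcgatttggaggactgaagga
Psmc6, chr14:45329699-45329828: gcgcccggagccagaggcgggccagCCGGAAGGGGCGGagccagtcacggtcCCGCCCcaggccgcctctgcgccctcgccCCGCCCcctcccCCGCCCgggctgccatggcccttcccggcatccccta
Psmd9, chr5:123228065-123228194: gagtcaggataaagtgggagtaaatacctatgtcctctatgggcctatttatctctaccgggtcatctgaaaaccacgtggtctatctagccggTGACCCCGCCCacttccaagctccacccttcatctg
The Psma4 window holds GC boxes alone among the motifs searched, Psmc1 holds an ETS core close to the start, and Psmc6 holds an ETS core that runs into a GC box. In Psmd9 a match to the antioxidant response element core overlaps a GC box on the other strand.

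Over the whole promoter windows, 250 bases before to 50 after the start, 37 of the 45 genes had an entry in the RefSeq table. A gene was counted if any of its entries held the motif, while the share of all promoters was taken over single entries. The ETS core was in 14 of the 37 (37.8%), beside 8.86% of the 32851 promoters in the table. By particle, 1 of 11 matched core subunits and 9 of 14 matched regulatory subunits held the ETS core, a difference that was not tested. The GC box was in 22 of the 37 (59.5%, beside 35.7% of all promoters), the CCAAT box in 12 (32.4%, beside 37.4%) and the antioxidant response element core in 6 (16.2%, beside 12.4%). Among genes past the threshold, the last of these was in the windows of Psmc6, which fell, and Psmd9, which rose. A letter match of this kind is a description of the window and was not tested as a binding site.

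Psma4, the alpha-ring subunit whose tail forms part of the entrance gate, stood at 77.0, 84.6 and 79.5 RPKM in wild type and at 46.1, 59.0 and 56.6 RPKM in knockout. Every knockout library was below every wild-type library. The mean went from 80.4 ± 3.92 to 53.9 ± 6.87 RPKM (SD, n = 3 each), a log2 difference of -0.57 ± 0.12 (SE; limma voom adjusted p = 0.00811). The other alpha subunits had smaller differences. Psma6, the most abundant of them by deposited exon length, stood at 103, 99.0 and 98.3 RPKM in wild type and 67.9, 85.8 and 94.9 RPKM in knockout, without overlap of the groups but with knockout libraries spread widely, and the log2 difference of -0.27 (95% interval -0.55 to 0.0013) did not pass (limma voom adjusted p = 0.165). The ratio of Psma4 to Psma6 was 0.744, 0.855 and 0.808 in wild type and 0.679, 0.687 and 0.596 in knockout, so Psma4 was lower relative to Psma6 in each knockout library. The pair was chosen after the levels had been seen, so this ratio describes the same fall of Psma4 and is no separate evidence.

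Across the alpha ring, 1 of 7 subunits passed, lower, and 6 did not. Of those 6, 4 had negative and 2 positive log2 differences, those of Psma2 and Psma3 changing sign with single libraries left out, and the ring's median was -0.11, beside -0.01 over all genes tested. Psma7 was the subunit with the largest positive difference in the ring, 0.29 (interval -0.02 to 0.60). Summed over the ring by deposited exon length, levels were 329, 345 and 302 RPKM in wild type and 252, 282 and 300.1 RPKM in knockout. The groups did not overlap, but only by the narrow margin of wild-type library 3 over knockout library 3. That margin is not firm against the length used, since Psma7 has 3072 bases of deposited exon length and 914 of coding transcript. Without Psma4, a subset formed after its value was seen, the sums were 252, 260.4 and 222 RPKM in wild type and 206, 223 and 244 RPKM in knockout, and the groups overlapped.

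Psmb4, a beta subunit without catalytic activity, stood at 87.4, 76.6 and 68.6 RPKM in wild type and 105, 107 and 96.0 RPKM in knockout. The lowest knockout library was above the highest wild-type library. The mean went from 77.5 ± 9.42 to 102 ± 5.65 RPKM (SD, n = 3 each), a log2 difference of 0.41 ± 0.12 (SE; limma voom adjusted p = 0.0315), the only beta-ring subunit of 7 to pass. The rise did not pass without wild-type library 2 or 3 or without knockout library 1 or 2, with adjusted p up to 0.144 in those limma voom fits.

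The catalytic beta subunits gave values on both sides of 0. Psmb5, which carries the chymotrypsin-like activity, stood at 24.1, 30.7 and 26.2 RPKM in wild type and 27.5, 37.4 and 35.2 RPKM in knockout, with overlapping groups and a log2 difference of 0.33 (interval -0.04 to 0.69; limma voom adjusted p = 0.208). Psmb6, the caspase-like subunit, was nearly constant within wild type at 49.5, 48.4 and 49.5 RPKM and stood at 60.0, 58.8 and 55.3 RPKM in knockout. Its groups did not overlap, and its difference of 0.24 (interval 0.02 to 0.46) did not pass after adjustment (limma voom adjusted p = 0.135). Psmb7, the trypsin-like subunit, went the other way, at 140.2, 139 and 129 RPKM in wild type and 113, 123 and 114 RPKM in knockout. Its groups did not overlap either, with a difference of -0.22 (interval -0.44 to -0.01; limma voom adjusted p = 0.151). Psmb1, a non-catalytic subunit and by deposited exon length the most abundant of the 45, stood at 136, 159.9 and 135 RPKM in wild type and 125, 120.1 and 141 RPKM in knockout, and the groups overlapped.

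The beta ring as a whole had a median log2 difference of 0.22, with 5 positive and 2 negative values. Its summed level was 479, 508 and 448 RPKM in wild type and 484, 498 and 483 RPKM in knockout, so the knockout libraries lay inside the range of the wild type. Read by the median, beta subunits stood above 0 and alpha subunits below it, but 1 subunit passed in each ring and the difference between the rings was not tested.

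**Figure D1:**
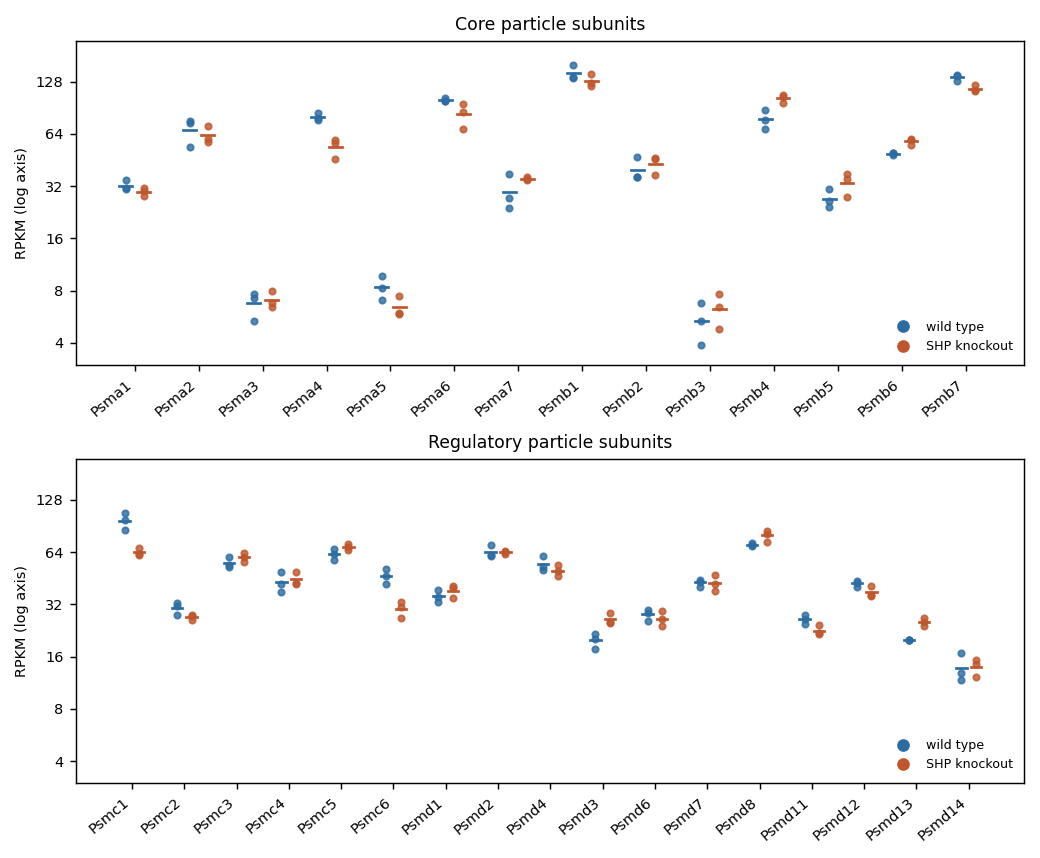
Level of each core subunit (upper panel) and each regulatory particle subunit (lower panel) in RPKM on a log axis, with 1 point per library, wild type in blue and knockout in orange, and a bar at the mean of each group of 3. Within the core the wild-type means run from 5.33 RPKM for Psmb3 to 143 RPKM for Psmb1, a wider range than in the regulatory particle. Its low end is set by Psmb3, Psma3 and Psma5, which have few counts. Most pairs of groups overlap.

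Among the regulatory ATPases, Psmc1 fell from 85.8, 97.5 and 107 RPKM in wild type to 61.8, 67.3 and 62.3 RPKM in knockout. The knockout libraries lay close together and well below the lowest wild-type library. The mean went from 96.7 ± 10.6 to 63.8 ± 3.05 RPKM (SD, n = 3 each), a log2 difference of -0.60 ± 0.11 (SE, 95% interval -0.84 to -0.35; limma voom adjusted p = 0.00429), the smallest p of the 44. Psmc1 is the ATPase known for opening the gate of the core particle.

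Psmc6 fell from 41.6, 51.3 and 46.4 RPKM in wild type to 26.8, 30.9 and 32.9 RPKM in knockout. All 3 knockout libraries were again below all 3 wild-type libraries, and the mean went from 46.4 ± 4.84 to 30.2 ± 3.09 RPKM (SD, n = 3 each). Its log2 difference of -0.61 ± 0.12 (SE; limma voom adjusted p = 0.00626) was the largest in size of the 44. Psma4, Psmc1 and Psmc6 passed in all 14 alternative settings, which include leaving out each library in turn, with adjusted p of at most 0.0381 in limma.

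The other 4 ATPases did not pass. Psmc2, which pairs with Psmc1 when the ring is built, had a log2 difference of -0.17 (interval -0.40 to 0.05), and Psmc3, which pairs with Psmc6, had 0.10 (interval -0.12 to 0.33). Psmc4 and Psmc5, the remaining pair, had 0.06 (interval -0.21 to 0.32) and 0.13 (interval -0.10 to 0.37). The lower ends of all 4 intervals lie above the fitted differences of Psmc1 and Psmc6. The interval of Psmc2 still overlaps those of Psmc1 (-0.84 to -0.35) and Psmc6 (-0.87 to -0.34). Differences between the ATPases were not tested. The ATPases assemble into the ring in equal numbers, which does not fix the ratio of their transcripts. The ratios given here were chosen after the levels had been seen. They describe the same falls of Psmc1 and Psmc6 and are no separate evidence. The RPKM ratio of Psmc1 to Psmc5 was 1.49, 1.46 and 1.71 in wild type and 0.907, 0.946 and 0.951 in knockout. Psmc1 was thus above Psmc5 in each wild-type library and below it in each knockout library, and the same held with lengths of the coding transcript (1.31 to 1.53 against 0.813 to 0.853). Over Psmc3 the ratio was 1.59, 1.62 and 2.03 in wild type and 0.978, 1.12 and 1.11 in knockout, lower without overlap. By deposited exon length this ratio was still above 1 in 2 knockout libraries. With lengths of the coding transcript it was above 1 in each wild-type library and below 1 in each knockout library (0.706 to 0.808). The ratio of Psmc6 to Psmc4 was 0.989, 1.04 and 1.24 in wild type and 0.545, 0.726 and 0.786 in knockout, again without overlap. With lengths of the coding transcript it was below 1 in every library, still without overlap (0.641 to 0.802 against 0.353 to 0.509).

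The ATPase sum was 309, 358 and 337 RPKM in wild type and 297, 299.6 and 284 RPKM in knockout, without overlap. Without Psmc1 and Psmc6, a subset formed after they had passed, it was 181, 209 and 184 RPKM in wild type and 208, 201 and 189 RPKM in knockout, with overlap.

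Of the 3 base subunits that are not ATPases, none passed in limma voom and 0 had an unadjusted p under 0.05. Of all genes tested, 14.5% and 30.6% did. Psmd2, a scaffold that docks ubiquitin receptors, stood at 61.8, 70.6 and 60.7 RPKM in wild type and 63.8, 64.9 and 62.4 RPKM in knockout. Its log2 difference was -0.01 with an interval from -0.23 to 0.21, which excludes a change of the size seen in Psmc1. Psmd4, a ubiquitin receptor, stood at 52.4, 60.9 and 50.4 RPKM in wild type and 50.0, 53.6 and 46.5 RPKM in knockout, with overlapping groups and a difference of -0.12 (interval -0.36 to 0.12). Psmd1, the other scaffold, had a difference of 0.12 (interval -0.12 to 0.35).

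In the lid, Psmd3, a structural subunit, rose from 21.7, 20.3 and 17.8 RPKM in wild type to 28.6, 25.1 and 25.3 RPKM in knockout. The groups did not overlap, the means were 19.9 ± 1.96 and 26.3 ± 1.94 RPKM (SD, n = 3 each), giving a log2 difference of 0.40 ± 0.11 (SE; limma voom adjusted p = 0.0307). Leaving out wild-type library 2 or 3, or knockout library 1 or 2, ended the call (limma voom adjusted p up to 0.139). Psmd13, another lid subunit, stood just outside the threshold, at 20.0, 20.1 and 19.8 RPKM in wild type and 25.3, 26.8 and 24.0 RPKM in knockout, a difference of 0.34 ± 0.11 (SE; limma voom adjusted p = 0.0508). The Psmd13 locus shares 342 bases with Sirt3 on the other strand and 1194 bases with AC107815.2 on its own strand, and no source used here says how shared reads were counted.

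Psmd8, by deposited exon length the most abundant lid subunit, stood at 69.0, 72.3 and 69.8 RPKM in wild type and 81.5, 85.0 and 72.7 RPKM in knockout. The groups did not overlap, and the difference of 0.17 (interval -0.06 to 0.41) did not pass. The remaining lid subunits, Psmd6, Psmd7, Psmd11, Psmd12 and the deubiquitinase Psmd14, had differences between -0.22 and 0.04. Over the 8 lid genes, 1 passed, higher, and the median was 0.02. The lid sum was 258, 271 and 261 RPKM in wild type and 276, 277 and 270.2 RPKM in knockout, and the groups overlapped by the narrow margin of wild-type library 2 over knockout library 3.

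**Figure D2:**
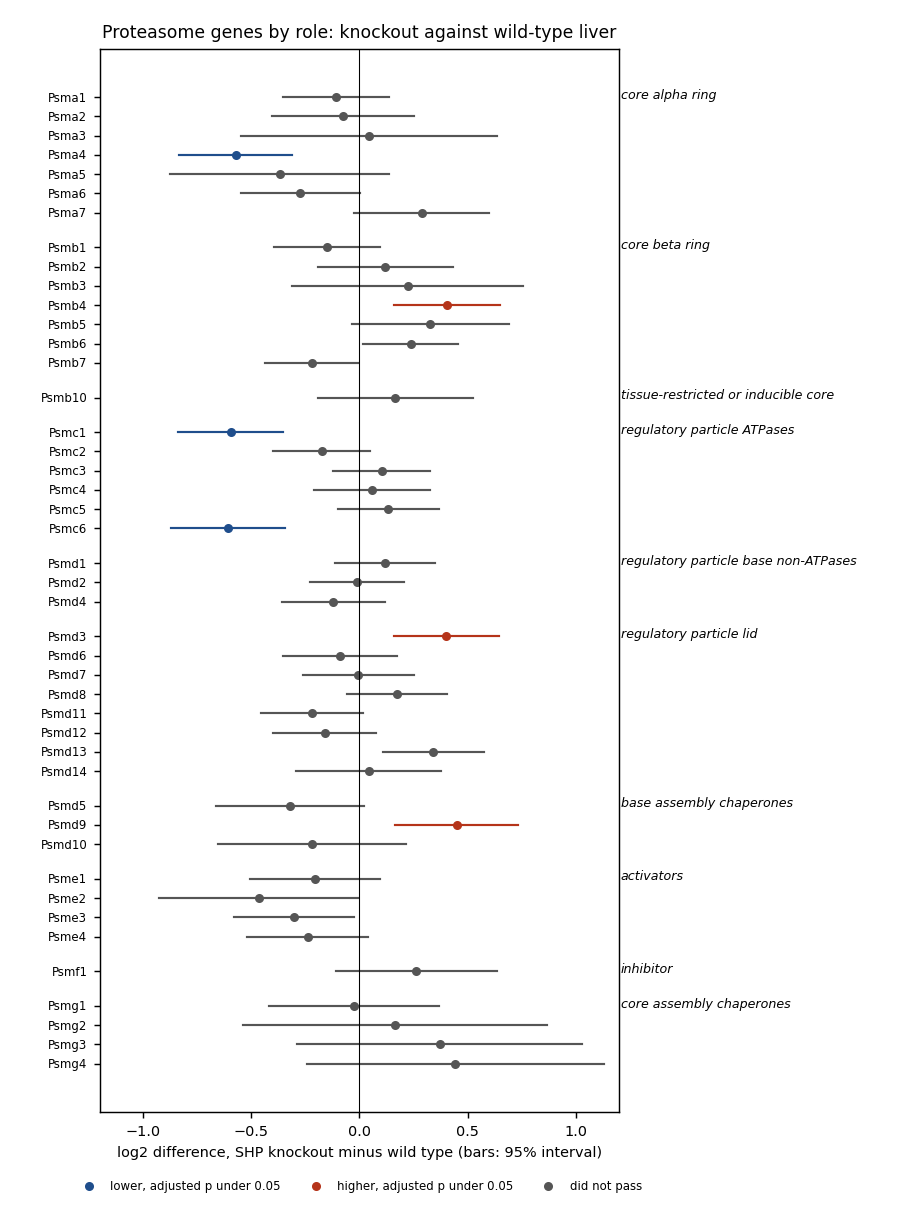
Log2 difference, knockout minus wild type, of each of the 44 genes tested, grouped by role, with bars for the 95% interval. The 3 lower genes past the threshold (blue) are at -0.57 to -0.61, the 3 higher ones (red) at 0.40 to 0.45, and all 4 activators lie left of 0 without passing.

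The core and the regulatory particle were then set side by side. In the core 1 of 14 subunits was higher and 1 lower, and in the regulatory particle 1 of 17 was higher and 2 were lower. That is 14.3% of the core and 17.6% of the regulatory particle, beside 14.5% of all genes tested. The median log2 differences of the core and the regulatory particle were -0.02 and -0.01, with ranges of -0.57 to 0.41 and -0.61 to 0.40. Groups did not overlap for 5 of 14 core and 7 of 17 regulatory subunits, and for 17 of all 44 genes (38.6%), where 35.1% of all genes tested had groups that did not overlap. The median of the regulatory particle reached 0.06 when wild-type library 2 was left out and 0.08 when knockout library 2 was.

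The summed level of the core was 807, 853 and 749.5 RPKM in wild type and 736, 781 and 783 RPKM in knockout. That of the regulatory particle was 716, 799 and 742 RPKM in wild type and 722, 736 and 703 RPKM in knockout. The ratio of core to regulatory particle was 1.13, 1.07 and 1.01 in wild type and 1.02, 1.06 and 1.11 in knockout, means of 1.07 ± 0.0588 and 1.06 ± 0.0476 (SD, n = 3 each). By deposited exon length each group's libraries thus spanned nearly the same range, and the spread between libraries was larger than the difference between genotypes. Whether the ratio lies above or below 1, and which genotype has the higher mean, depends on the gene length used. With the length of 1 coding transcript per gene it was 0.872 ± 0.0399 in wild type and 0.906 ± 0.0234 in knockout (SD, n = 3 each), and the groups overlapped.

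**Figure D3:**
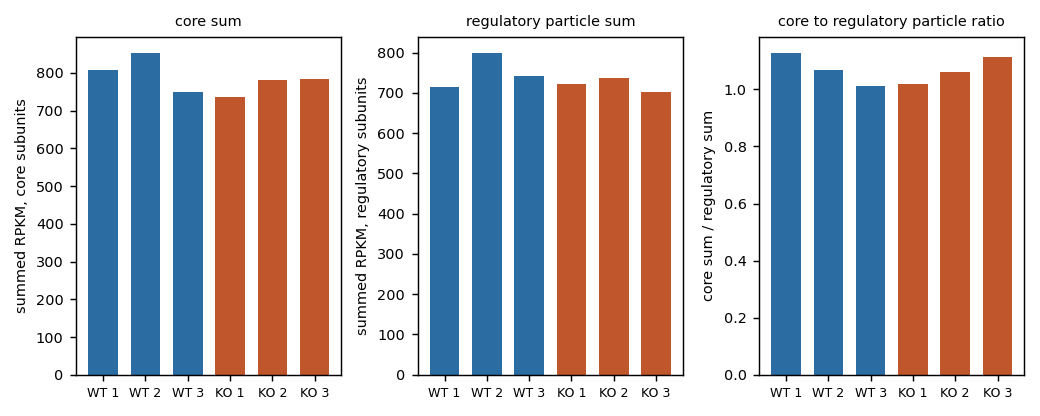
Summed RPKM of the 14 core subunits, summed RPKM of the 17 regulatory particle subunits, and their ratio, as 1 bar per library with wild type in blue and knockout in orange, all axes from 0. The ratios run from 1.01 to 1.13 in wild type and from 1.02 to 1.11 in knockout, so the groups cover each other.

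Levels within each particle were far from equal, although its subunits occur in fixed proportions in the assembled complex. In wild type, core subunits ranged 26.9-fold by deposited exon length, from Psmb3 at 5.33 ± 1.46 RPKM to Psmb1 at 143 ± 14.2 RPKM (SD, n = 3). Regulatory subunits ranged 7.0-fold, from Psmd14 at 13.8 RPKM to Psmc1 at 96.7 RPKM. With coding transcript lengths the order changed: the core ran from Psma3 at 2.12 RPKM to Psmb7 at 142 RPKM, 66.8-fold, and the regulatory particle from Psmd14 at 25.3 RPKM to Psmd4 at 120.1 RPKM, 4.75-fold. Psmb1 went from 143 to 66.8 RPKM and Psma7 from 29.7 to 99.7 RPKM between these lengths, so the place of a single subunit in the order is not firm. The wider range of the core held with both, but by deposited exon length its low end rests on Psmb3, Psma3 and Psma5. The next lowest core subunit by that length was Psmb5 at 27.0 RPKM in wild type, above Psmd14. Psma3, Psma5 and Psmb3 had only 23 to 82 counts per library, and their fold differences carry standard errors of 0.24 to 0.28 on the log2 scale.

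**Figure D4:**
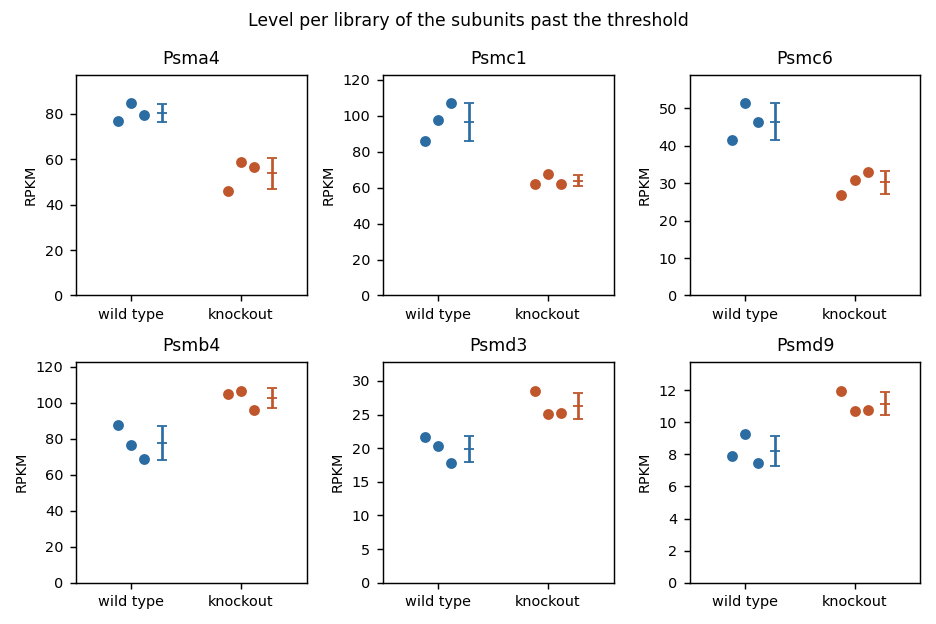
Level in RPKM of the 6 genes past the threshold, with 1 point per library, a bar at the mean and whiskers of 1 SD (n = 3), each axis from 0. Psma4, Psmc1 and Psmc6 are lower and Psmb4, Psmd3 and Psmd9 higher in every knockout library than in every wild-type library.

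The chaperones that assemble the base gave Psmd9, which holds an ATPase until the ring is complete, as the third gene to rise. It stood at 7.89, 9.25 and 7.45 RPKM in wild type and 12.0, 10.7 and 10.7 RPKM in knockout, without overlap, a log2 difference of 0.45 ± 0.13 (SE; limma voom adjusted p = 0.0367). It was the least stable of the 6, passing in 8 of 14 alternative settings and in 1 of the 6 that leave out a library, the exception being wild-type library 2, with adjusted p up to 0.150. Psmd10, or gankyrin, stood at 14.6, 9.91 and 10.2 RPKM in wild type and 10.7, 9.49 and 9.50 RPKM in knockout, with overlap and a difference of -0.22 (interval -0.65 to 0.22). Psmd5, the third of these chaperones, had -0.32 (interval -0.67 to 0.02) and groups that did not overlap.

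The 4 activators, which bind the end of the core in place of the regulatory particle, had negative differences from -0.47 to -0.20, and 0 of 4 passed in limma voom, 2 having an unadjusted p under 0.05. The shares of all genes tested were 14.5% and 30.6%. Psme1 stood at 49.9, 64.0 and 50.0 RPKM in wild type and 45.7, 42.3 and 51.7 RPKM in knockout, with overlap. Its interferon-induced partner Psme2 had -0.47 (interval -0.93 to -0.01; limma voom adjusted p = 0.159), but its 38 to 80 counts per library were fewer than the 212 to 401 listed for its copy Psme2b-ps, so its value is uncertain. The nuclear activator Psme3 had -0.30 (interval -0.58 to -0.02; limma voom adjusted p = 0.132), and it passed without wild-type library 1 (adjusted p = 0.0428). The activator sum was 104, 132 and 114 RPKM in wild type and 93.8, 94.2 and 100.3 RPKM in knockout, without overlap.

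Psmf1, which inhibits the core in vitro, stood at 3.52, 4.20 and 3.01 RPKM in wild type and 4.96, 3.69 and 4.15 RPKM in knockout, with overlap and a difference of 0.26 (interval -0.11 to 0.63). The chaperones of the core, Psmg1 to Psmg4, which build the alpha ring, gave 0 of 4 past the threshold in limma voom and 0 at an unadjusted p under 0.05. Beside these counts stand 14.5% and 30.6% of all genes tested. Psmg1 stood at 15.7, 16.5 and 12.2 RPKM in wild type and 17.0, 13.1 and 13.6 RPKM in knockout, with overlap. Psmg4 stood at 7.39, 6.75 and 7.74 RPKM in wild type and 7.83, 13.5 and 9.45 RPKM in knockout. Its groups did not overlap, but it had 18 to 39 counts per library and an interval from -0.24 to 1.13, too wide to show a change of the size found in the genes that passed.

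Interferon replaces the catalytic subunits by induced partners, of which Psmb10, the partner of Psmb7, is in the set. Psmb10 stood at 31.9, 24.0 and 22.0 RPKM in wild type and 29.8, 29.1 and 27.9 RPKM in knockout, with overlap and a difference of 0.17 (interval -0.19 to 0.52). The ratio of Psmb7 to Psmb10 was 4.39, 5.77 and 5.85 in wild type and 3.80, 4.21 and 4.08 in knockout, without overlap. Neither gene passed, and this ratio restates their values, among them the lower Psmb7, and is no separate evidence. For the other catalytic pairs the groups overlapped: Psmb5 to Psmb8 was 1.13, 1.53 and 1.40 in wild type and 0.611, 1.16 and 1.22 in knockout, and Psmb6 to Psmb9 was 7.22, 11.2 and 8.64 in wild type and 6.04, 7.78 and 7.42 in knockout. Of the other two partners, which the rule leaves out, Psmb8 rose from 18.8 to 21.3 RPKM in wild type to 28.8 to 45.0 RPKM in knockout, by 0.76 ± 0.18 on the log2 scale (SE; limma voom adjusted p = 0.0141), and Psmb9 had 0.53 ± 0.21 (SE; limma voom adjusted p = 0.106). In the interferon-response list 2 of 6 rose (Irf7 and Tap1), where 7.58% of all genes tested passed in that direction. Its summed level was 39.6 to 54.2 RPKM in wild type and 70.6 to 76.1 RPKM in knockout. Macrophage markers summed to 130.2 to 154 RPKM in wild type and 139 to 212 RPKM in knockout. Of these markers 1 of 6 was higher (C1qa), beside the same 7.58% of all genes. The T and NK cell list summed to 0.677 to 0.96 RPKM in wild type and 0.588 to 1.22 RPKM in knockout, with Cd3e and Cd8a at 0 to 2 counts in wild type and 0 in knockout. The B cell list summed to 1.6 to 1.84 RPKM in wild type and 0.156 to 1.2 RPKM in knockout, lower without overlap, and none of its genes had enough counts for a test. The part of other cell types in these values was not tested, and in bulk liver fewer cells of a type and less RNA per cell cannot be told apart.

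Differences of the proteasome genes were small in size. The median absolute log2 difference of the 44 genes was 0.22, beside 0.29 over all genes tested, and the largest was 0.61. None exceeded 2-fold in either direction, which 5.76% of all genes tested did. The median coefficient of variation between libraries was 10.7% in wild type and 7.90% in knockout for the 44 genes, and 14.9% and 14.4% for all genes. The proteasome genes were also deeper, with a median mean level of 70.8 CPM (here counts per 1000000 counts of the scaled library) beside 18.0, and the part of depth in the smaller spread was not tested.

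Genes that work with the proteasome under other names were read from lists of the same kind. The regulatory particle partners Adrm1, Shfm1, Uchl5 and Usp14, the core chaperone Pomp, the scaffold AI314180 and the import factor Akirin2 gave 0 of 7 past the threshold in limma voom, with 1 at an unadjusted p under 0.05. Pomp, the maturation factor of the core, had 0.13 ± 0.10 (SE). The shuttle factors and the segregase Vcp with its cofactors gave 0 of 11 in limma voom, and 0 at an unadjusted p under 0.05. Of all genes tested, 14.5% passed and 30.6% had an unadjusted p under 0.05. Groups did not overlap for 4 of the 7 partners, 2 higher and 2 lower, and for 0 of the 11, beside 35.1% of all genes.

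In the NFE2L1 list 1 of 7 passed (14.3%, beside 14.5% of all genes tested), and it was lower. At an unadjusted p under 0.05 in limma voom there were 4 of 7, beside 30.6% of all genes. These were Ddi2 and Nfe2l2, which were lower, and Mafg and Mafk, which were higher. Ddi2, the protease that releases active NFE2L1, fell from 43.1, 42.8 and 42.6 RPKM in wild type to 33, 34.9 and 29.1 RPKM in knockout. The wild-type libraries were nearly equal and all above the knockout, with a log2 difference of -0.41 ± 0.10 (SE; limma voom adjusted p = 0.0175, and up to 0.0735 over the alternative settings). Nfe2l1 itself stood at 53.8, 53.7 and 49.2 RPKM in wild type and 59.7, 50.8 and 55.2 RPKM in knockout, with overlap and a difference of 0.08 ± 0.10 (SE).

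Positions gave no shared locus for the genes that passed. The 45 genes lie on 16 chromosomes, and the closest neighbours were Psme1 and Psme2, 5.92 kb apart on chromosome 14, followed by Psmb4 and Psmd4, 146 kb apart on chromosome 3. Psmb4 rose, while Psmd4 had a difference of -0.12. Psmb2 is the only gene of the 45 on chromosome 4, which carries Nr0b2, and lies 6.72 Mb from it with a difference of 0.12 (interval -0.19 to 0.43). In 13 of the 45 genes the annotated span overlaps another gene of the table.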

How the data were processed

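Per the labels' protocols, 5′ capped liver RNA was extracted with TRIzol, and paired reads of 36 cycles were taken from 3 barcoded samples per lane, with no record here of which ones. The submitters' processing notes name Novoalign 2.05.33 and mm9, while the counting tool, its use of strand and its treatment of multiply aligned reads are not stated in any source used. The authors deposited whole-number read counts per gene and library, RPKM and a log2 ratio for pooled groups, and 2 score columns of a negative binomial test. The authors' RPKM were recomputed within 0.1% from counts, exon lengths and header totals for all 18215 knockout and 18232 wild-type genes above 0. Of 33495 genes, 13901 had empty cells (4840 lines ended early) and were left out, and since an automated check of units reads those cells as text, the counts were recorded under a general unit. Of counts from 1 to 19, 61.8% were even, so counts are not independent fragments.

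Genes were tested if they had 15 counts in total and 1.83 CPM (10 counts in a library of median size) in 3 or more libraries. Scaling used trimmed means of M values (own code, factors 0.965 to 1.03). The counts plus 0.5, as log2 CPM, went through voom, lmFit and eBayes of limma 3.58.1 under R 4.3.3 in a model of genotype alone, and p-values are two-sided with Benjamini-Hochberg adjustment over 11794 genes. The code was tested on simulated counts. No set test was run. Values in every library were given for genes past the threshold, the most abundant of each role by deposited exon length, the 3 largest differences in each direction, and Psmb5, Psmb6, Psmb7, Psmb10 and Psmd4. Psmd13 was added after its value was seen. The 45 genes, role groups and lists were chosen with earlier results of these data known. Motifs were searched on both strands of RefSeq promoter windows (GRCm38.p6), and coding transcript lengths came from a later annotation, an alternative added after seeing the data. No pair of libraries within a group agreed within counting noise, which does not show that they are separate animals. The list of ubiquitin genes and activating enzymes is not reported here.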

Additional observations from a re-analysis of the deposited data

How the results depend on the processing

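The 6 genes past the threshold were the same 6 under limma's trend fit, library totals without scaling and the replicate block. Leaving out 1 library at a time left 3 to 6 proteasome genes past the threshold: 3 when wild-type library 3 was left out and likewise for knockout libraries 1 and 2, and then 0 were higher. Genes higher numbered 0 to 2 and genes lower 3 to 4 in these fits, and all genes past the threshold 633 (without wild-type library 3) to 1572, against 1713, with 1073 without knockout library 1. Psmd13 passed with robust variance moderation, a stricter filter, upper quartile scaling and median of ratios scaling, Psma7 without wild-type library 2, and Psmd9 did not pass without a filter (adjusted p = 0.0630). The median of the core ran from -0.0753 to 0.0388 over the fits without a library, and that of the regulatory particle from -0.0477 (wild-type library 3 left out) to 0.0759. The ratio of core to regulatory particle was 0.540 in wild type and 0.547 in knockout as sums of CPM, and 0.872 and 0.906 with coding transcript lengths. The 2 kinds of length and the count scale weight genes differently by construction. Of 608 single-gene values under alternatives, 565 kept direction and side of the threshold, 14 no longer passed, 6 newly passed and 23 changed sign. The sign changes came from 9 genes that did not pass in any setting. Over the fits without a library the log2 differences ran from -0.245 to 0.0199 for Psma2, -0.0833 to 0.141 for Psma3, -0.00485 to 0.45 for Psmb3, -0.0395 to 0.162 for Psmc4, -0.0685 to 0.182 for Psmd14, -0.0523 to 0.0623 for Psmd2, -0.0958 to 0.0759 for Psmd7, -0.172 to 0.0583 for Psmg1 and -0.223 to 0.376 for Psmg2. Psmd7 was also positive without a filter (0.0022), with the stricter filter (0.00466) and with median of ratios scaling (0.00116). Same-numbered libraries of the genotypes did not deviate together (correlations over genes of -0.0187, -0.0210 and -0.0244), so the numbers do not pair them. A fit with the replicate number as a block called 6 proteasome genes and 1778 genes in all. The depth of 18 to 82 counts per library limits Psma3, Psma5, Psmb3, Psme2, Psmg2, Psmg3 and Psmg4 to wide intervals.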
